A study of Mus musculus with 35 samples.

Results

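N6-methyladenosine (m6A), a methyl mark on adenosines of messenger RNA, was mapped in wild-type (WT) mouse neural progenitor cells (NPCs), the cultured stem-like cells of the embryonic brain. The assay was methylated-RNA immunoprecipitation sequencing (meRIP-seq), in which an antibody against m6A pulls down RNA fragments and the immunoprecipitate (IP) is set against the input RNA. The 4 meRIP-seq samples, 2 IPs and 2 inputs, are 4 of 35 samples in the series. All peaks of the 4 deposited lists were used, 69442 in total, each list setting IP cz3 or cz4 against input cz1 or cz2. Peaks were placed on the exons of the authors' batch 3 transcript assembly, and genes under a peak were compared with expressed genes without one.

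RNA-seq of the same kind of cells gave the expression levels and a comparison by Mettl14 genotype. The groups were homozygous knockout (KO; 3 libraries in batch 1 and 2 in batch 3), heterozygous (Het; 3 in batch 1) and WT (3 in batch 1 and 2 in batch 3). By the labels every sample came from embryos, each RNA library had its own numbered NPC line, and the 2 meRIP-seq cultures were called NPC1 and NPC2. The protocols describe a floxed Mettl14 allele made in embryonic stem cells and deleted either in the whole animal, with EIIa-Cre, or in the brain, with nestin-Cre; which Cre gave each culture is not given in the sources used here. The RNA libraries held between 14.1 M and 20.05 M estimated fragments. The peak lists hold no read numbers, and the depth of the IP and input libraries is unknown.

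m6A is placed on nascent mRNA by a complex whose catalytic subunit Mettl3 works together with Mettl14 and with adaptors such as Wtap, Zc3h13 and Rbm15. The mark sits in short GGAC-type sequences and is most frequent in long exons and in the part of a transcript around the stop codon. Reader proteins of the Ythdf family bind it and direct many marked mRNAs to decay, and in neural progenitors the mark is known for its part in the timing of cell cycle exit and differentiation.

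The sequence under peaks is shown for the few places where letters could be read, the RefSeq windows from 250 bases before to 50 bases after annotated gene starts (build GRCm38.p6). Of 32851 windows, 317 belonged to an expressed marked gene, as defined further on, and held at least 30 exonic bases inside regions of all 4 lists. The 8 genes below had the strongest such regions with a GGACT on the transcript strand. The 29 bases around it are given 5′ to 3′ with GGACT in capitals.
Ptch1: gcaaagacctcgGGACTcacgcgcaatgt
Gdf1: acccttctccagGGACTctggctgccagc
Zcchc14: cttggcacgcaaGGACTaccattcgctgc
Efcab14: ggagacgcggctGGACTggccgcggcgcg
Prr18: cctagcagcccgGGACTtggcaagccctt
Nup153: cgccagcggcctGGACTgcggcagcgacg
Slc7a6os: tggaggccggcaGGACTgcggtgttgcgc
Spsb4: gccctgagcgcgGGACTcgtcgctctcca
The Ptch1 stretch, from the gene of the Hedgehog receptor, lies at chr13:63565701-63565729 on the minus strand under a region of 5.68-fold over input. That of Nup153, a nuclear pore protein gene, lies at chr13:46727815-46727843 on the minus strand under a region of 4.38-fold. The stretch of Zcchc14, at chr8:121652135-121652163 on the minus strand, lies under a region of 4.91-fold, and Zcchc14 had 7 shared regions in all. On the plus strand, the stretches of Gdf1, a ligand gene of the TGF-beta family, Efcab14 and Prr18 lie at chr8:70329764-70329792 (region of 5.23-fold), chr4:115737865-115737893 (4.89-fold) and chr17:8340625-8340653 (4.86-fold). On the minus strand, those of Slc7a6os and Spsb4 lie at chr8:106210884-106210912 (4.27-fold) and chr9:97018542-97018570 (4.23-fold). The GGACT of Zcchc14, Efcab14, Prr18 and Spsb4 lies upstream of the RefSeq start of its window, at −218, −196, −102 and −203 bases. These counted as exonic by the authors' assembly, not by that start.

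Within the covered exonic bases of these windows (23204 bases), GGAC occurred 6.12 times per kilobase, those inside GGACT included, and GGACT 1.64 times. Their reverse complements, GTCC and AGTCC, occurred 4.22 and 0.517 times per kilobase in the same bases. In the 7089 exonic bases of the same windows outside shared regions, GGAC occurred 5.36 times and GGACT 1.97 times per kilobase, so GGAC was slightly denser under the regions and GGACT was not. No test was made, and the outside count of GGACT rested on 14 occurrences. Bases and motifs were summed over windows, so a base in overlapping windows counted in each. Of all windows, 65.6% held GGAC and 26.1% held GGACT on the transcript strand (66.1% held GTCC and 26.0% AGTCC), and a match describes the letters in a window, not a methylated site.

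The lists were close in size, with 18291 peaks for cz3 against cz1, 16747 for cz3 against cz2, 17509 for cz4 against cz1 and 16895 for cz4 against cz2, and median folds over input of 4.17, 4.22, 4.02 and 4.04 in the same order. Sex-linked transcripts went against an even behaviour of the lists. Peaks of 14.3- to 23.1-fold covered 98.9% of the exonic bases of Xist, the noncoding RNA of the inactive X chromosome, in cz4 against cz1, against 7.38% at up to 3.88-fold in cz4 against cz2 and none in the 2 lists of cz3. The Y-linked Eif2s3y, Ddx3y and Uty had 5, 11 and 4 peaks in cz3 against cz2 and none in any other list, and Kdm5d had 10 there and 1 in cz3 against cz1. The WT RNA libraries of batch 3 differed in the same genes, with 201 and 0.0438 FPKM (a level scaled to transcript length and library size) of Xist. Whether cz4 against cz1 and cz3 against cz2 each pair an IP and an input of cultures of different sex, in which case RNA level would enter their folds, was not tested. None of these genes was under a region of all 4 lists. The main counts are also given for cz3 against cz1 and cz4 against cz2 alone, the pairs of IP and input with the fewest or weakest peaks on these genes.

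Overlapping peaks (by at least 1 base) joined into 25601 regions, of which 9861 held a peak of each of the 4 lists and 7138 a peak of 1 list only. Shared regions were wider, with a median of 339 bases against 90 bases for regions of 1 list, and lay more often on exons, 87.2% against 72.4%. Their median folds were close, 4.22 and 4.06. Across the 9861 shared regions the folds of any 2 lists had Pearson's r of 0.752 to 0.880, which describes regions and not independent samples, since each list shares an IP or an input with others. With the lists cz3 against cz1 and cz4 against cz2 alone, a choice made after these data were seen, 11563 regions were shared.

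A gene was called marked when a shared region touched its exons, partly marked when only regions of 1 to 3 lists did, and unmarked when no peak did. Of 11425 genes with a mean WT level of at least 1 FPKM in batch 3, 5385 (47.1%) were marked, 3260 (28.5%) partly marked and 2780 (24.3%) unmarked. Most marked genes carried few regions: 3453 had 1 shared region, 1273 had 2, 431 had 3 and 228 had 4 or more. The mean fold of a gene's strongest peak over the 4 lists had a median of 4.32 (quartiles 3.61 and 5.11), and the spread of that fold between lists was small, with a median SD of 0.367. Peaks carry no strand, so a region under overlapping genes counts for each of them; 290 marked expressed genes had such a region. With the 2 lists alone, 5901 genes (51.6%) were marked, and without genes on chromosomes X and Y 5234 (47.5% of the remaining genes) were.

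Long exons set marked genes apart from unmarked ones more than the number of exons did. The median exonic length was 4313 bases in marked genes against 2405 bases in unmarked genes, and the longest exon had a median of 2077 against 862 bases. Exon number barely differed, with medians of 9 and 8. When the expressed genes were put into 5 bins by longest exon, 70.9% were marked in the bin of the longest (3081 bases and more) against 18.2% in that of the shortest (605 bases and less). By exonic length the shares were 70.6% and 23.3%. Any shared region on its exons marks a gene, so a longer gene offers more bases for one. Shares per base of a gene were not computed. The median level was similar, 13.5 FPKM in marked genes and 11.9 FPKM in unmarked genes, but the share marked was highest at middle levels: it was 40.6%, 54.2%, 55.8%, 51.4% and 33.7% over 5 bins from the lowest to the highest FPKM. With both properties, genes of the longest exons (2204 bases and more) were marked in 63.4%, 71.2% and 64.5% of cases at low, middle and high level, and genes of the shortest (952 bases and less) in 21.9%, 34.7% and 21.6%.

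**Figure D1:**
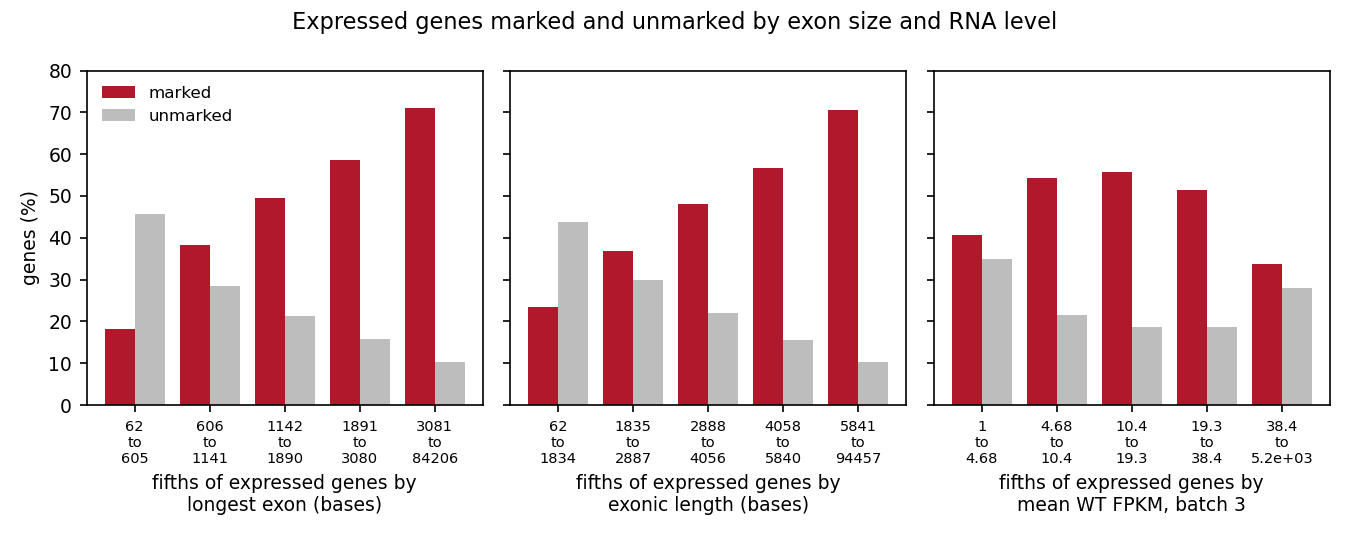
Share of expressed genes (%) that were marked (red) or unmarked (grey) in 5 bins of equal size by longest exon (bases), exonic length (bases) and mean WT FPKM of batch 3; the remainder to 100% is partly marked. The share marked is 18.2% in the lowest and 70.9% in the highest bin of longest exon, whereas it peaks at middle RNA levels, at 55.8%.

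By RefSeq gene type, 5100 of 10711 expressed protein-coding genes (47.6%) were marked, against 85 of 275 long noncoding RNA genes (30.9%) and 1 of 28 small nucleolar RNA genes. Among noncoding RNAs, Tug1 had 3 shared regions with a mean fold of 3.82 at 40.2 FPKM, and Kcnq1ot1, the antisense RNA of an imprinted domain, had 1 of 5.41-fold at 1.25 FPKM. Malat1, an abundant nuclear RNA at 234 FPKM, had no peak in any list. Gas5, a host of small nucleolar RNAs at 267 FPKM, had a region in fewer than 4 lists only.

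The strongest enrichment lay on mRNAs of low to middle level. Lnx2, which encodes a ubiquitin ligase that binds the Notch regulator Numb, had folds of 10.5, 11.01, 11.9 and 12.8 in the 4 lists (cz3 against cz1, cz3 against cz2, cz4 against cz1, cz4 against cz2). Its single shared region, chr5:147018259-147018594 (mm10), lay in exon 10 of 10. Adamts5, a secreted metalloprotease gene, had folds of 10.6, 9.98, 12.2 and 12.7 in the same order, in a region of 188 bases in exon 1 of 8 (chr16:85899209-85899396). Both IPs were high against both inputs for these genes, with the cz4 lists above the cz3 lists. Sertm1 varied more, with 7.84 and 12.02 for cz3 and 10.7 and 13.4 for cz4 against cz1 and cz2.

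The other 9 of the 12 highest were Cyb5rl, Cecr6, Lrig2 and Prdm11 (mean folds 9.24, 8.99, 8.90 and 9.20), Cdk13, a kinase of RNA polymerase II (mean fold 9.26, 5 shared regions), the zinc finger factor Hivep2 (9.09, 3 regions), the POU factor Pou2f1 (8.73, 2 regions), the calmodulin-dependent kinase Camk1d (9.59, 2 regions) and the deubiquitinase Otub2 (8.79, 1 region). Prdm11 depended most on the input: its folds were 10.9 and 12.3 against cz1 and 7.30 and 6.30 against cz2. The WT levels of the 12 genes ran from 1.28 FPKM (Adamts5, 0.896 and 1.66 in the 2 libraries) to 12.8 FPKM (Cdk13, 12.3 and 13.3).

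Among genes with 1 locus and no region on another gene, the 12 with the most shared regions had exonic lengths of 4382 bases (Ppp1r9b) to 19635 bases (Fat3), against a median of 4313 bases in all marked genes; the highest count of all, 25, was on a joined locus of clustered protocadherin genes. The atypical cadherins Fat4, Fat3 and Fat1, giant adhesion proteins, had 13, 8 and 8 shared regions with mean folds of 5.24, 5.49 and 4.16. Spen, a transcriptional corepressor that also acts in X inactivation, and Tnrc18 had 10 each, as did Kmt2a, a methyltransferase for lysine 4 of histone H3. Soga1 had 9, and Prr14l, Bahcc1, Zcchc14, Ttc28 and Ppp1r9b had 7 each. Prr14l differed by input, with folds of 7.35 and 7.87 against cz2 and 5.43 and 5.52 against cz1. Across the 5385 marked genes the number of shared regions went with exonic length (Spearman's rho 0.338) and hardly with level (−0.0073), values over genes that share the same 4 libraries.

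**Figure D2:**
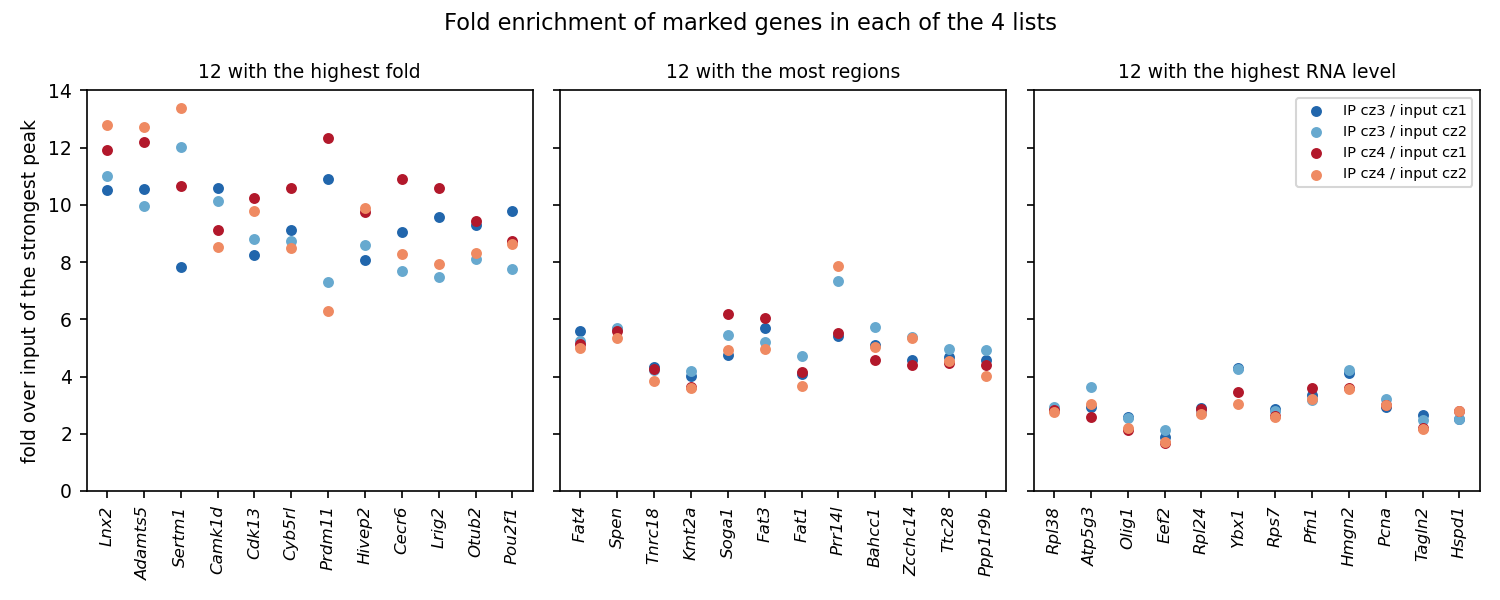
Fold over input of the strongest peak on each gene (vertical axis) in each of the 4 lists (colours), for the 12 marked genes with the highest mean fold, the most shared regions and the highest WT RNA level. Folds run between 6.30 and 13.4 in the first panel and between 1.68 and 4.29 in the last, and the 4 points of a gene mostly lie close together.

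Some of the most abundant RNAs had no peak in any list; in the highest of the 5 level bins 33.7% of genes were marked and 28.1% unmarked. Of the 12 unmarked genes with the highest level, Eef1a1, the translation elongation factor gene, stood first with 5165 and 5226 FPKM in the 2 WT libraries. Ckb, creatine kinase of the brain, had 4571 and 3486 FPKM, and the radial glia genes Fabp7, a fatty acid carrier, and Vim, an intermediate filament, had 2759 and 2611 FPKM and 2086 and 2345 FPKM. The others were Tmsb4x, Actg1, Mir703 and the ribosomal protein genes Rplp1, Rps12, Rpl41, Rps20 and Rpl23a. The longest exon was 117 to 844 bases in 10 of the 12, 2761 bases in Rps20 and 109 bases in Mir703, a microRNA locus that had 2314 and 2087 FPKM but only 8.57 and 7.11 CPM (counts scaled to library size, not to length).

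Marked genes of high level had weaker folds, with a median of 3.29 in the highest level bin against 5.28 in the lowest. Rpl38 (1350 and 1317 FPKM) had folds of 2.84, 2.95, 2.84 and 2.77, in a region that lay mostly outside its exons. Olig1, a transcription factor of the oligodendrocyte lineage (1063 and 774 FPKM), had folds of 2.58, 2.55, 2.13 and 2.20. Eef2, the other main elongation factor gene (929 and 877 FPKM), had 1.90, 2.14, 1.68 and 1.70. Ybx1, an RNA-binding protein gene (653 and 578 FPKM), stood higher with 4.29 and 4.25 for cz3 and 3.46 and 3.04 for cz4. Over all 5385 marked genes the mean fold and the WT level had a Spearman's rho of −0.597, and the part of input depth in it was not tested.

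Among 53 gene lists with at least 5 expressed members, the share marked ran from 3.75% to 100%, against 47.1% of all expressed genes, and 33 lists lay above that share. Several transcription factor families had high shares. All 13 expressed Sox genes were marked, including Sox2, which maintains neural stem cells (1 region, mean fold 2.06, 201 FPKM), Sox1 (3 regions, 5.76) and Sox8 (4 regions, 3.28). So were 13 of 14 Fox factors, among them Foxo6 (7.26-fold) and Foxk1 (6.06), 12 of 13 Kruppel-like factors, among them Klf2 (6.87), and 228 of 298 zinc fingers named Zfp (76.5%). Zfp462 and Zfp609 had 6 regions each, and Zfp964 and Zfp472 had the highest folds of the list, 8.08 and 7.91.

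Immediate early genes, switched on within minutes of a stimulus, were marked in 24 of 26 cases (92.3%), with Dusp1 (6.65-fold), Egr2 (5.82), Junb (5.70), Jun (3 regions, 2.83) and Myc (3 regions, 3.62) among them. Of cadherins and protocadherins 27 of 29 were marked; beside the Fat genes, Pcdh17 had 6 regions and a mean fold of 8.35, and Celsr1, a planar polarity cadherin, had 4 and 7.17. Voltage-gated ion channels were marked in 14 of 18 cases at a median of only 2.85 FPKM. Axon guidance genes were marked in 25 of 34 cases, including the ephrin gene Efnb2 (3 regions; 7.07, 7.38, 9.01 and 8.29 in the 4 lists), its receptor gene Ephb3 (8.78, 7.44, 8.18 and 6.26) and the semaphorin receptor gene Nrp2 (7.30, 5.80, 8.53 and 6.68).

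Several lists of chromatin genes had a share marked above that of all expressed genes. The list of H3K4 methyltransferases and demethylases had 15 of 18 marked, with Kmt2a at 10 regions, Kmt2c and Kmt2d at 6 each, and Setd1b at 5 with a mean fold of 6.43. The list of histone acetyltransferases, which also holds subunits of their complexes, had 13 of 16 marked. The subunit gene Brpf3 had 5 regions and the enzyme genes Crebbp and Ep300 had 4 each, and Hat1 and Kat2b were unmarked. Polycomb genes had 18 of 28 marked, among them Pcgf5 (7.10-fold), Cbx2 (5.35) and Suz12 (4.02); the methyltransferase gene Ezh2 and its partner gene Eed had regions in fewer than 4 lists only. Histone deacetylases and corepressors, at 9 of 20, were near the share of all expressed genes.

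The m6A machinery itself was under peaks. Of the writer complex genes 6 of 8 were marked, Zc3h13 and Rbm15 with 4 regions each (5.11- and 4.87-fold) and Wtap with 3 (4.77); Mettl3 and Mettl14 had 1 region each, in fewer than 4 lists. Of readers and erasers 8 of 12 were marked, the decay reader Ythdf2 with a mean fold of 7.70 (9.88 and 9.39 against cz2 but 5.59 and 5.95 against cz1) and the nuclear reader Ythdc1 with 7.13, while the demethylase genes Fto and Alkbh5 had 2.97 and 2.80. Genes of mRNA deadenylation, decapping and decay were marked in 21 of 34 cases, with Cnot4 (6.10), Dcp1b (5.52) and Ddx6 (3 regions, 5.14) among them.

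Genes of the progenitor state were mixed. Of 21 genes of neural stem cells and radial glia, 14 were marked, including Pax6 (2 regions, 5.32), Notch1 (4 regions, 5.43), Emx2 (3 regions, 5.63) and Nes (1 region, 2.29), and Vim, Fabp7, Hes5, Prom1 and Msi2 were unmarked. In the Notch pathway, where ligands on a cell activate receptors on its neighbour, 11 of 17 were marked: the receptors Notch1 and Notch2 (3 regions, 4.95), the ligands Dll1 (3 regions, 3.51) and Jag1 (3.78), the cofactor Maml1 (3 regions, 5.40) and the targets Hes1 (3.55) and Hey1 (3.07). Proneural and intermediate progenitor genes were marked in 7 of 9 cases, among them Btg2 (3 regions, 3.97). In the Hedgehog pathway 6 of 9 were marked, with the transducer genes Gli2 (3 regions, 6.85) and Smo (4.52) beside Ptch1 (3 regions, 5.68). Genes of neuronal differentiation were marked in 4 of 15 cases, those of astrocytes in 2 of 8 and those of the oligodendrocyte lineage in 6 of 7, against 47.1% of all expressed genes.

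Housekeeping lists lay at the other end. Only 3 of 80 cytosolic ribosomal protein genes were marked (Rpl24, Rpl38 and Rps7) and 58 had no peak at all. The list had a median longest exon of 211 bases and a median of 969 FPKM. The shared regions of Rpl24, Rpl38 and Rps7 were 215, 359 and 196 bases wide and held 0.076, 0.095 and 0.104 kb of exon. Those of Rpl24 and Rpl38 lay mostly outside exons, and touching an exon was enough for the mark. The proteasome had 5 of 34 marked, the nuclear-encoded respiratory chain 13 of 88, glycolysis 3 of 17, aminoacyl-tRNA synthetases 4 of 20, and translation initiation and elongation factors 7 of 33. DNA replication and mitosis genes were below the overall share, at 15 of 45 and 14 of 41. These lists had median longest exons of 211 to 792 bases and median levels of 38.0 to 969 FPKM, whose part in the share was not tested. The Sox and Zfp lists had median longest exons of 3797 and 2930 bases. Not every list of low share had short exons. The median longest exon was 2092 bases for neuronal differentiation (4 of 15 marked) and 1617 for SR proteins and hnRNPs (11 of 32). It was 1725 for cholesterol synthesis (8 of 22) and 4047 for a list of long noncoding RNAs (4 of 14).

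**Figure D3:**
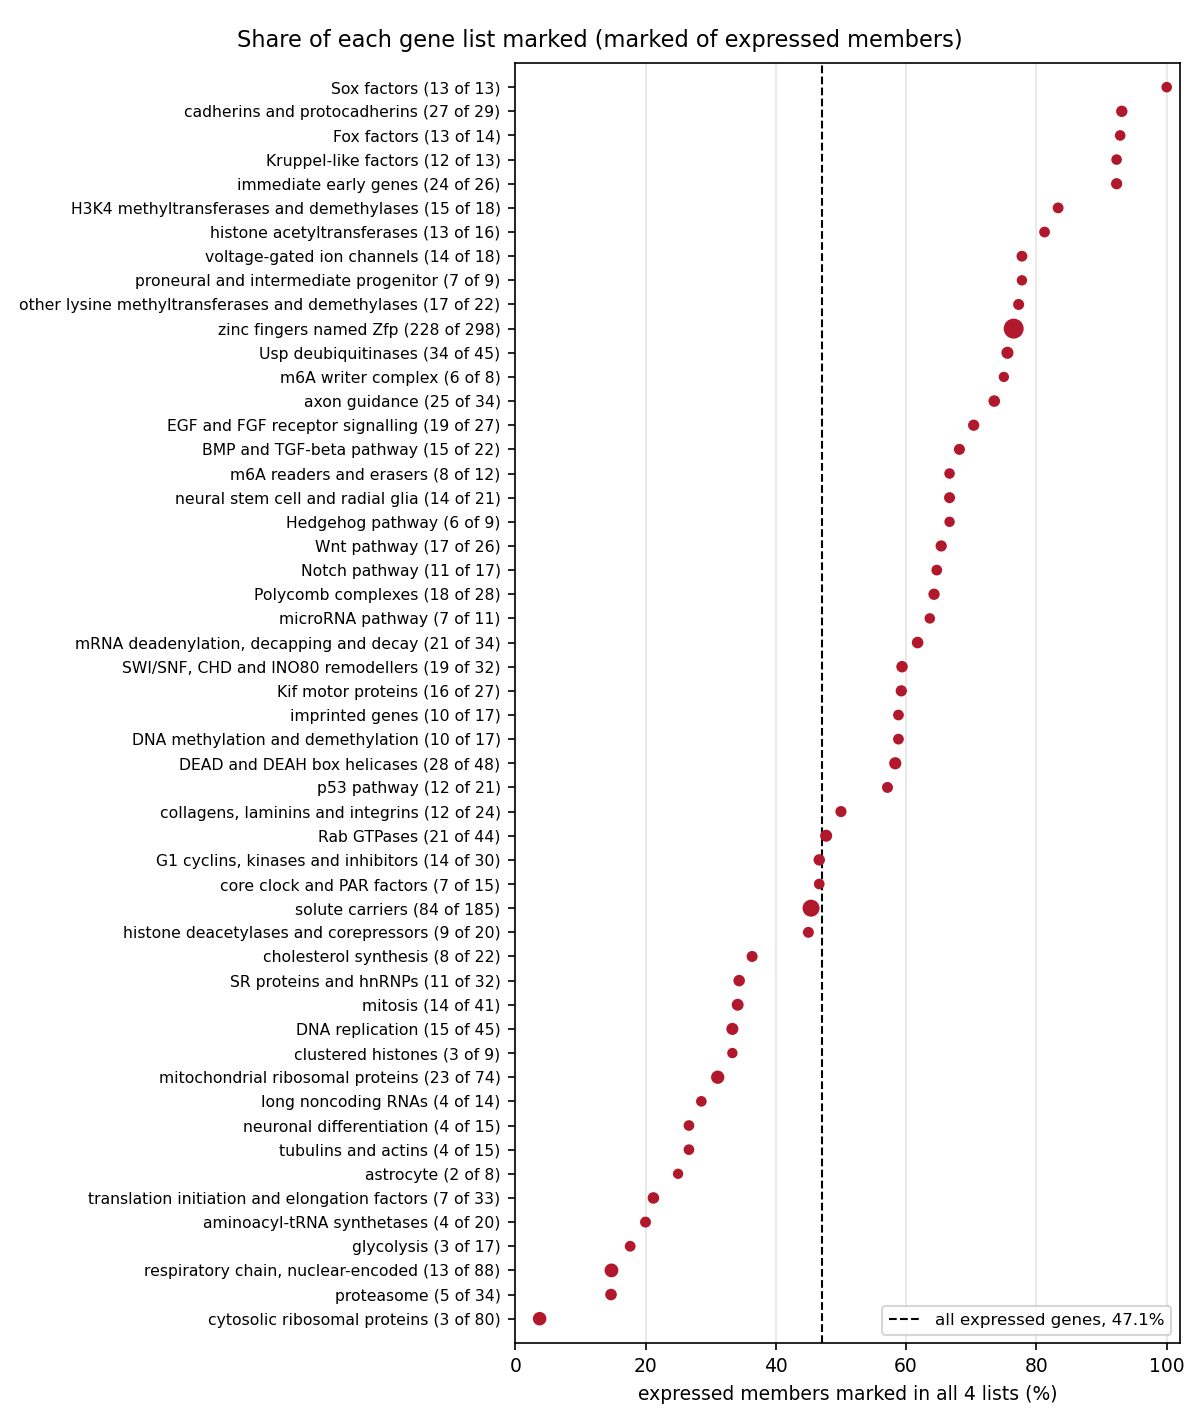
Percent of the expressed members of each gene list that were marked in all 4 lists (horizontal axis), for lists with at least 8 expressed members; dot area grows with their number and the dashed line is all expressed genes, 47.1%. Sox, cadherin, Fox, Kruppel-like and immediate early genes lie above 92%, and cytosolic ribosomal protein genes at 3.75%.

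The marker genes of the labelled cell type were present: the WT cells expressed Sox2, Nes, Vim and Fabp7 at 201, 180, 2215 and 2685 FPKM. All 21 genes of the neural stem cell and radial glia list reached 1 FPKM. Genes of glial lineages were expressed too. Of 11 astrocyte genes measured 8 reached 1 FPKM (median of these 33.4 FPKM), and of 11 oligodendrocyte lineage genes 7 did (median 24.1 FPKM). Olig1 stood at 919 FPKM. No microglial (0 of 10), endothelial (0 of 9) or erythroid (0 of 3 measured) marker gene reached 1 FPKM, and of 10 fibroblast and pericyte markers only Cspg4, which oligodendrocyte precursors also express (24.1 FPKM), and Tagln (1.18 FPKM) did.

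On multi-exon transcripts, with each gene represented by its longest known transcript, 7431 shared regions could be placed. Each was placed at the base of the transcript's exons nearest to the region's middle. The last exon held 54.4% of them and 54.5% of the transcript bases, so it was not enriched as a whole. The first exon held 14.2% of regions and 7.75% of bases, and internal exons 31.4% of regions and 37.8% of bases. Internal regions lay in unusually long exons: 75.7% were in exons over 400 bases, which made up 2.60% of internal exons and 16.4% of internal exon bases of expressed genes. Within the last exon regions lay near its start, with 52.2% of 4043 regions placed in its first 400 bases, which held 16.0% of last-exon bases. In last exons of at least 800 bases the shares were 48.0% and 14.001%.

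**Figure D4:**
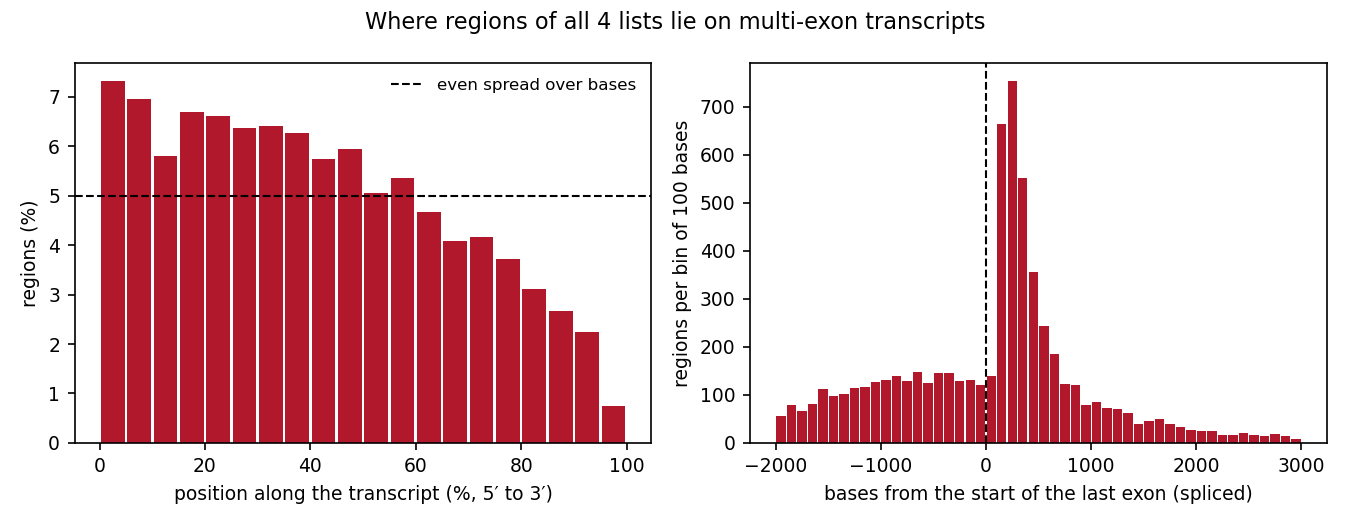
Left, share of shared regions (%) in 20 steps along the spliced transcript from its 5′ to its 3′ end, with an even spread over bases as a dashed line. Right, number of regions, each placed at its exonic base nearest the middle, per bin of 100 bases around the start of the last exon (0). The share is 7.32% in the first step and 0.754% in the last, and regions pile up 100 to 400 bases into the last exon, with 754 in the highest bin.

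Folds were somewhat lower in internal exons. The median fold was 4.20 in first exons, 3.78 in internal exons and 4.16 in last exons, with quartiles that overlapped (3.17 to 4.497 in internal and 3.49 to 4.91 in last exons).

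The RNA of KO cells was set against WT over batches 1 and 3 to see how the genes marked in WT cells behaved when Mettl14 is deleted. Mettl14 counts over the whole gene were not called different: KO libraries had 23.2, 20.8 and 23.3 CPM in batch 1 and 31.1 and 23.0 in batch 3, against 24.1, 25.5 and 23.2 and 39.4 and 36.9 in WT libraries (log2 fold change −0.27, SE 0.11, edgeR adjusted p = 0.053). Counts over the whole gene do not report on a deleted exon, so they do not check the labels. Het libraries had 23.7, 22.3 and 24.0 CPM, against 22.9, 24.4 and 22.2 CPM in WT libraries of that fit.

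A larger share of marked than of unmarked genes was higher in KO cells, and a smaller share was lower. Of 5208 marked genes that passed the filter on low counts, 2069 (39.7%) were higher and 1371 (26.3%) lower in KO; of 2649 unmarked genes, 532 (20.1%) were higher and 1062 (40.1%) lower (edgeR, adjusted p below 0.05). Among all 13323 genes tested the shares were 30.3% higher and 31.1% lower. Unlike the classes, these include genes below 1 FPKM in WT cells of batch 3. Partly marked genes resembled unmarked ones, with 665 higher and 1335 lower of 3164. The median log2 fold change was 0.11 in marked, −0.14 in unmarked and 0.0021 in all genes. The marked median was 0.057 with limma on log2(FPKM + 1), where that of all genes was −0.06, and 0.062 with genes marked by a peak of both IPs against either input; the difference between the classes was described and not tested. Higher and lower are relative to the scaling of the libraries, which sets the bulk of genes near no change. A shift shared by most RNAs would therefore not show, and RNA amounts per cell were not measured. In bulk RNA, fewer cells of a type and less RNA per cell cannot be told apart.

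The share higher in KO grew with the number of shared regions. It was 34.0% with 1 region (1136 of 3340), 48.3% with 2 (592 of 1226), 48.9% with 3 (205 of 419) and 61.0% with 4 or more (136 of 223). The share lower was 29.9%, 20.8%, 19.8% and 15.2% in the same order. When the marked genes were put into 4 bins of mean fold, that of the lowest folds had 403 higher and 450 lower of 1310, and that of the highest had 605 higher and 278 lower of 1303. Fold fell with WT level (Spearman's rho −0.597), and the share higher fell with level too. Bins of fold were not compared at like level.

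**Figure D5:**
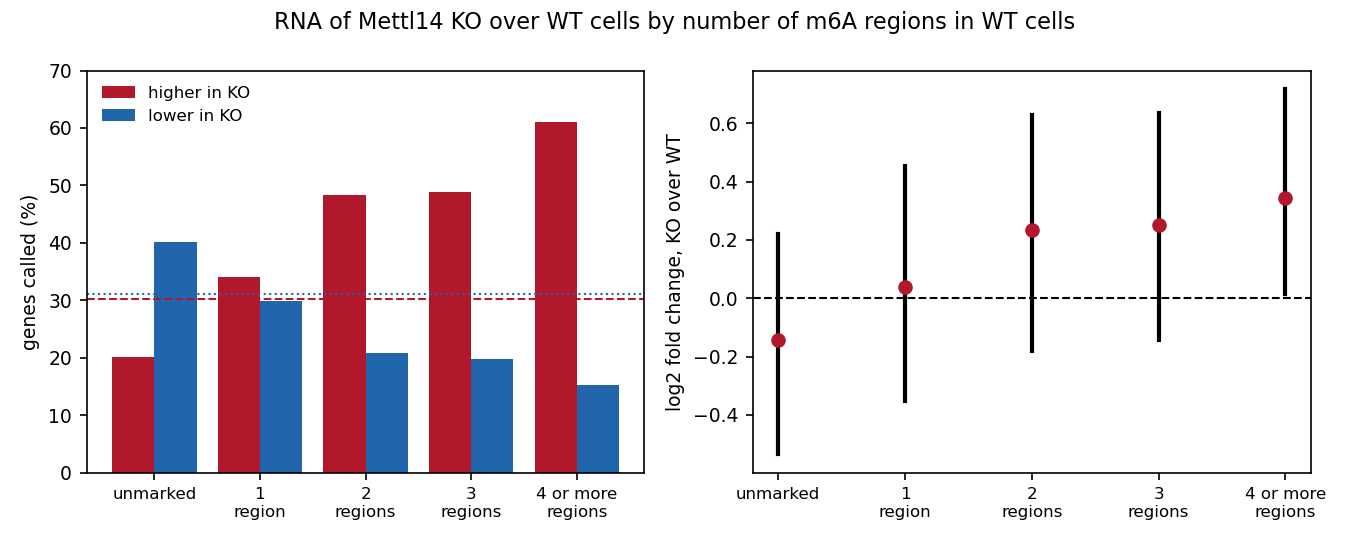
Left, share of tested genes (%) called higher (red) or lower (blue) in KO than in WT by the number of shared m6A regions in WT cells. The dashed and dotted lines are the shares of all genes tested (30.3% and 31.1%), those below 1 FPKM in WT included. Right, median (dot) and quartiles (bar) of the log2 fold change, KO over WT, with the median of all genes tested dashed. Calls of higher RNA go from 20.1% of unmarked genes to 61.0% of genes with 4 or more regions.

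Level and exon size also moved with the KO difference. Below, marked and unmarked genes are set side by side in bins of level and, separately, of longest exon. The part of either in the difference between the classes was not tested. The level is that of the WT libraries of batch 3, which are also part of the KO comparison. In the lowest of 3 level bins 817 of 1670 marked genes were higher and 309 lower, against 296 and 292 of 1064 unmarked genes. In the highest level bin marked genes were more often lower, 604 against 379 higher of 1500, yet less so than unmarked genes, 476 lower and 98 higher of 883. In the bin of the longest exons 1091 of 2446 marked genes were higher and 580 lower, against 105 and 178 of 445 unmarked genes. In that of the shortest exons 292 of 955 marked genes were higher and 325 lower, against 255 and 550 of 1395 unmarked genes.

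Both batches gave the same order. In batch 1 alone 43.8% of marked and 24.4% of unmarked genes were higher, and 30.1% and 44.8% lower. In batch 3 alone, with 2 libraries a group, 25.3% of marked and 9.85% of unmarked genes were higher, and 12.5% and 16.8% lower, among genes also tested over both batches.

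Calls in the gene lists are given beside shares of 39.7% higher and 26.3% lower over all marked genes and of 30.3% and 31.1% over all genes tested. Of 211 marked zinc fingers named Zfp that were tested, 144 were higher and 15 lower in KO, against 7 and 5 of 23 unmarked ones. Of 13 Sox genes 8 were higher and none lower (median log2 fold change 0.51), with Sox4 at 1.32 (SE 0.13, edgeR adjusted p = 1.1e-05) and Sox2 at 0.97 (SE 0.087, edgeR adjusted p = 6e-06). All 6 marked writer complex genes were called higher, as were 6 of 7 marked proneural and intermediate progenitor genes. Mitochondrial ribosomal protein genes had 11 higher and 2 lower of 22 marked members and 0 higher and 10 lower of 21 unmarked ones.

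In the lists of DNA replication and mitosis most tested members were lower in KO, marked or not. DNA replication genes had 12 of 15 marked and 8 of 10 unmarked members lower and none higher, and mitosis genes 13 of 14 and 12 of 12. Of 14 marked voltage-gated ion channel genes 6 were lower and none higher. These lists were chosen with results of these data known, so their counts describe the data and do not test the lists.

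Marked genes with large differences went both ways. KO and WT libraries did not overlap in either batch for 1654 marked genes called higher (31.8%, against 22.9% of all genes tested) and 1087 called lower (20.9%, against 24.6%). Tnrc6c, a partner of Argonaute in microRNA silencing with 4 shared regions, had 616, 654 and 669 CPM in KO libraries of batch 1 and 630 and 362 CPM in those of batch 3, against 118, 124 and 130 CPM and 85.4 and 97.3 CPM in WT libraries (log2 fold change 2.40, SE 0.13, edgeR adjusted p = 4e-07). Every KO library lay well above every WT library. Sspn, which encodes sarcospan, had 155, 135 and 137 CPM and 151 and 126 CPM in KO, against 27.9, 30.1 and 29.8 CPM and 28.0 and 26.5 CPM in WT (2.31, SE 0.075, edgeR adjusted p = 3.8e-08).

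The other 6 of the 8 largest rises, with log2 fold changes of 2.34 to 2.85, were Apcdd1, a Wnt inhibitor gene, Col27a1, a fibrillar collagen gene, Scrg1, Dbp, a clock output factor gene, Naglu, a lysosomal enzyme gene, and Sncaip. Each had 1 to 3 shared regions, with mean folds of 4.49 to 5.95.

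The largest falls were deeper. Akap12, a scaffold for protein kinase A with 3 shared regions, had 24.97, 21.8 and 19.7 CPM in KO libraries of batch 1 and 77.3 and 77.7 CPM in those of batch 3, against 699, 628 and 753 CPM and 646 and 646 CPM in WT libraries (log2 fold change −4.19, SE 0.34, edgeR adjusted p = 2.8e-06). Cdh19, a cadherin gene with 2 shared regions, had 0.707, 0.416 and 0.954 CPM and 1.90 and 1.05 CPM in KO, against 21.4, 19.5 and 20.5 CPM and 24.8 and 42.1 CPM in WT (−4.71, SE 0.24, edgeR adjusted p = 2.9e-07). The libraries of the genotypes were far apart for both. Thbd (−5.80), Bdkrb2 (−5.18), Golga7b (−4.89), Six3os1 (−4.58), 9330188P03Rik (−4.503) and Gpr126 (−3.96) completed the 8; Six3os1 is antisense to Six3, and without strand their reads could be mixed where they overlap.

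In Het cells no marked gene was called against WT by edgeR in either direction (0 of 5204), and 1 of 2636 unmarked genes was called higher. Over all 13267 genes tested 0.0151% were called higher and 0.00754% lower. At an unadjusted p below 0.05 there were 543 marked genes (10.4%), against 223 unmarked genes (8.46%) and 9.23% of all genes. DESeq2 called 9 marked genes higher and 9 lower.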

How the data were processed

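The submitters' processing notes name MACS2, Bowtie2 2.3.1 and the build mm10. Each deposited peak has a fold over input (a ratio) and a −log10 q from the authors' peak caller; the lowest −log10 q was 1.01. Gene models are the authors' deposited batch 3 assembly. RNA tables give the authors' estimated counts per locus and library and FPKM; the notes also name TopHat2 2.1.0, Cufflinks and Cuffdiff. The counts were rounded and summed by gene symbol. The batch 2 table is byte for byte that of batch 1, so batch 2 was not analysed here. In the text the lists have the names cz1 to cz4 that the deposited lists carry; the labels number the same samples otherwise, and the names were not tied to single cultures. Like names also number batch 2 RNA libraries, Het ones among them, but all 4 meRIP-seq samples are labelled WT. Per-sample columns of other samples numbered 0.

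Overlapping peaks were merged with Python 3.11.15 and pandas 2.3.3. RNA was fitted with edgeR 4.0.16 (TMM, default low-count filter, two-sided quasi-likelihood F test, Benjamini-Hochberg adjustment over all genes tested, batch as covariate for KO against WT); DESeq2 1.42.0 and limma 3.58.1 gave alternatives. CPM use TMM factors. The placing and the edgeR fits were tested on simulated data. In simulated KO data, with 197 of 12951 genes changed, edgeR recovered 51% of 1.5-fold and 82% of 2-fold changes. Of its 137 calls 6 were false. In simulated Het data it recovered 73% and 87%, and 20 of 179 calls were false. Far fewer genes were changed in the simulation than were called in the KO data. Of 11425 expressed genes 351 had no key of the same name in the batch 1 table and were not tested; a locus that joins genes was kept as 1 gene and left out of the named genes and of lists. Named genes are the 12 highest by mean fold, by number of shared regions and by WT FPKM among marked genes with 1 locus and no shared region on another gene, the 12 highest by FPKM among unmarked ones, the 8 largest rises and 8 largest falls in KO among marked genes called with no overlap in either batch and a mean of at least 10 CPM in WT or KO in each batch, and list members. The members and lists were chosen with earlier results of these data known. Promoter windows were matched by symbol, and 67.4% of 19630 window starts lay within 1 base of a model's start. No genome was used here, so motifs were read in these windows and not under all regions.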

Additional observations from a re-analysis of the deposited data

Results flagged for a closer look

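The effect of KO differed between the batches for 4 of the 16 marked genes with the largest differences, by an interaction term in edgeR (the difference given below; the effect in each batch is from that batch alone), always with the same sign in both. Akap12 fell less in batch 3 (log2 fold change −3.02) than in batch 1 (−4.97), a difference of 1.91 (edgeR adjusted p = 0.0002). Golga7b did too, at −3.39 and −6.27 (difference 2.84, edgeR adjusted p = 0.012), on KO levels of at most 1.16 CPM. Apcdd1 was raised less in batch 3, 1.86 against 3.48 in batch 1 (−1.67, edgeR adjusted p = 0.035), and so was Dbp, 1.96 against 3.00 (−1.08, edgeR adjusted p = 0.049). The batches hold different lines, so line and batch cannot be told apart. The share of all genes tested with such a difference was not counted, so it is not known whether these 4 genes stand out. Among all genes tested in each batch alone, 69.4% were called in batch 1 and 31.7% in batch 3.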

How the results depend on the processing

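The 9861 shared regions stayed within 1.5 times of that number under every alternative run (7980 at a −log10 q of at least 2, 14454 with a peak of both IPs against either input). The count of 5385 marked genes was 4385 (at 5 FPKM or more) to 6694 (a peak of both IPs against either input) under the other rules run, except that of any 1 list, which gave 8645; leaving out a WT library of batch 3 gave 5373 to 5382. At a −log10 q of at least 2 the medians became 4428 and 2514 bases of exonic length, 2146 and 915 bases of longest exon and 2059 and 890 bases of last exon in marked and unmarked genes, and 12.9 FPKM in unmarked genes. At 5 FPKM or more they became 1980 bases of longest and 1900 bases of last exon in marked genes, and 17.1 and 22.6 FPKM in marked and unmarked genes, so the order of the 2 level medians turned. In batch 3 alone KO calls fell in number to 1318 higher and 649 lower marked and 258 higher and 443 lower unmarked genes; that fit had fewer samples. Leaving out each library gave 1879 to 2348 marked genes higher and 1123 to 1399 lower, and 455 to 610 unmarked genes higher and 915 to 1142 lower. DESeq2 called 9 marked genes higher and 9 lower in Het, and 5 and 1 unmarked genes; without a low-count filter 1 marked and 1 unmarked gene were lower. Leaving out each library gave, in Het, 0 to 5 marked genes higher and 0 to 8 lower, and 0 to 5 unmarked genes higher and 0 to 8 lower; the highest counts came without Het replicate 1 or WT replicate 1 of batch 1. No paired analysis was possible because the peak lists are not tied to NPC1 or NPC2 and hold no value of a single library, and the RNA libraries carry no shared numbers. Without read numbers for the peaks, a gene of low level without a peak may be unmarked or not measurable at this depth.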
